A study of Sus scrofa with 6 samples.

Results

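The genes described here encode the proteins of the cytosolic ribosome, and they were measured in the abdominal aorta of male Wuzhishan miniature pigs. They were chosen by name, as the protein-coding genes called RPL or RPS followed by a number, without the RPS6K kinases, together with RPLP0, RPLP1, RPLP2 and RPSA. This gave 58 genes of 30477 in all. They were 51 standard ribosomal proteins, 6 paralogs and 1 row named as a readthrough of RPL36A into HNRNPH2. The normal chow (NC) group was 3 pigs fed chow, and the HFCF group was 3 pigs fed a diet high in fat, cholesterol and fructose, each for 6 months, with 1 library per pig. The labels give an age of 3 to 4 months, and the methods give an older age at purchase. The RNA came from whole vessel tissue, so a gene could differ through the cells present or through the RNA in each cell, and these cannot be told apart in bulk samples.

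A ribosome has a small subunit, which reads the mRNA, and a large subunit, which joins the amino acids and passes the new chain out through an exit tunnel. The subunits are built from rRNA and a fixed set of proteins, most of them needed in a single copy per ribosome. The mRNAs of these proteins begin with a pyrimidine-rich start called a TOP motif, which they share with several translation elongation factors, and the kinase complex mTORC1 controls their use through this motif. In the artery wall, ribosome content is commonly linked to the growth state of smooth muscle cells and to the protein output of immune cells. Ribosomal protein genes also have many near-identical processed copies in mammalian genomes, so how the counting shared reads between a gene and its copies is uncertain for all of them.

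Expression was given as FPKM, a fragment count corrected for exon length and for library size, which is a level per length and can be compared between genes. Changes are log2 fold changes of FPKM + 0.1 (HFCF minus NC) with their SE, tested with limma over 15384 genes whose mean FPKM reached 0.1. A gene was called at a Benjamini-Hochberg adjusted p under 0.05. The summed FPKM was 272207 to 287141 in the NC pigs and 330222 to 338690 in the HFCF pigs, and the median gene was 0.32 higher in HFCF on the log2 scale. Changes are therefore also given relative to that median. Contractile smooth muscle markers were abundant in every pig, with summed FPKM of 15914 to 22729 in NC and 7997 to 12892 in HFCF.

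Most ribosomal protein genes were higher in the HFCF aorta and none was called lower. Of the 58 genes, 56 passed the expression filter, and 39 of these (69.6%) were called higher in HFCF, where 22.8% of all tested genes were. The number called lower was 0, against 6.16% of all tested genes. The median change of the 56 genes was 0.98, against 0.32 for all genes, a difference of 0.66 on the log2 scale. The changes ran from −0.10 for RPL10A to 2.77 for RPL37, with quartiles at 0.47 and 1.68. The HFCF values lay above all NC values in 48 of the 56 genes, where 36.1% of all tested genes showed this, and in 0 genes lay below them, where 12.1% did. A ratio of group means above 2 with an unadjusted p under 0.05 was found in 26 of the 56 genes, against 20.3% of all tested genes.

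These counts depended on how the libraries were scaled. When each library was centred on its median gene, 24 ribosomal protein genes were called higher and 0 lower, while 10.0% of all genes were called higher and 17.0% lower. The library medians were on average 0.50 higher in HFCF on the log2 scale, more than the median change of 0.32. Centring therefore left the median change of all genes at −0.18, where median-ratio scaling left it at −0.0027. The number called higher was 29 with median-ratio scaling, where 13.2% of all genes were higher, 30 with quantile normalization, where 11.4% were, and 30 after rescaling to TPM, where 14.5% were. In these scalings 12.8%, 11.6% and 9.93% of all genes were called lower. No ribosomal protein gene was called lower under any of these 4 scalings. The 24 genes called after median centring were called under all 4.

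**Figure D1:**
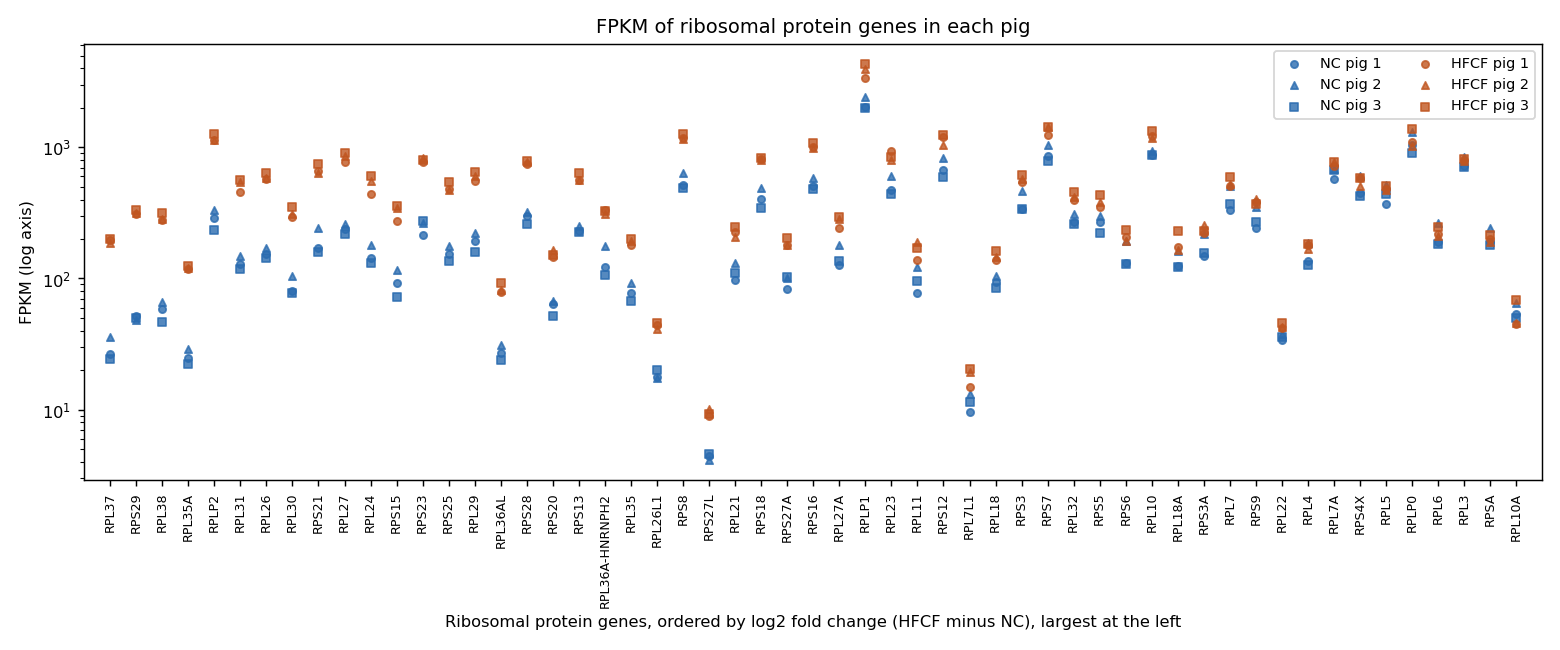
FPKM (log axis) of the tested ribosomal protein genes in each pig, without 1 gene that is not reported here, with NC pigs in blue, HFCF pigs in orange and a marker shape for each pig number. The genes are ordered by log2 fold change, from RPL37 (2.77) at the left to RPL10A (−0.10) at the right, and the groups are separate in most of them.

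Ribosomal protein mRNAs were among the most abundant in the vessel, with a median over the genes of 326.8 FPKM and 49 genes with a mean above 100 FPKM. Together the 58 genes took 5.49%, 6.58% and 5.45% of the summed FPKM in NC pigs 1, 2 and 3. In HFCF pigs 1, 2 and 3 they took 8.49%, 8.86% and 9.84%. The groups did not overlap, with 5.84% ± 0.64 in NC and 9.07% ± 0.70 in HFCF (SD, n = 3 each). The pigs also differed within a group: NC pig 2 had the highest NC value in 51 of the 56 genes, and HFCF pig 3 the highest HFCF value in 47. The median coefficient of variation between pigs was 15.4% in NC and 7.37% in HFCF.

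The mRNAs of the mitochondrial genome moved with the groups as well. Their 13 genes took 4.55% to 6.78% of the summed FPKM in NC and 8.79% to 13.2% in HFCF. After each library had been scaled to its nuclear protein-coding genes, 33 of the 56 genes were called higher and 0 lower, against 17.0% of all genes higher and 8.31% lower. One further row, a mitochondrial rRNA, was at 0.295 to 0.686 FPKM in NC and 140.7 to 205.7 FPKM in HFCF, while the other was at 112.8 to 372.5 and 101.0 to 130.5 FPKM. Their part in the ribosomal protein result was not tested.

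**Figure D2:**
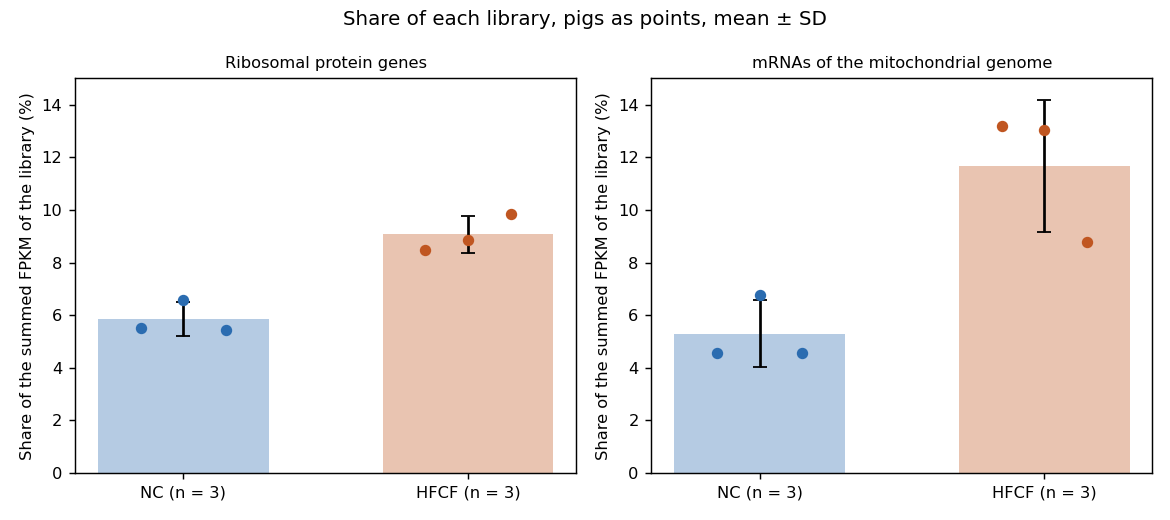
Share of the summed FPKM of each library (%) taken by the ribosomal protein genes (left) and by the mRNAs of the mitochondrial genome (right), with pigs as points, bars as group means and error bars as SD (n = 3). Ribosomal protein genes took 5.45% to 6.58% in NC and 8.49% to 9.84% in HFCF.

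Among the small subunit genes, 17 of 23 tested were called higher, beside 22.8% of all genes, with a median change of 0.99. After median centring 10 were called higher and 0 lower, beside 10.0% and 17.0% of all genes. RPS29 (ENSSSCG00000038507), a small zinc-binding protein of the subunit head, had 52.0, 48.0 and 50.2 FPKM in NC pigs 1 to 3 and 310.6, 314.8 and 335.2 FPKM in the HFCF pigs. Every HFCF value was far above every NC value, and the change was 2.67 ± 0.12 (limma, adjusted p = 0.000202).

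RPS6, the ribosomal protein that S6 kinases phosphorylate, had 130.8, 191.5 and 129.6 FPKM in NC and 207.5, 193.9 and 233.8 FPKM in HFCF. NC pig 2 came within a few FPKM of the lowest HFCF pig, and the change of 0.51 ± 0.19 was not called (limma, adjusted p = 0.0893). RPS7, which had the highest mean level of the 23 small subunit genes and takes part in small subunit assembly, had 863.9, 1036.8 and 790.1 FPKM in NC and 1243.6, 1437.3 and 1419.9 FPKM in HFCF. Its change of 0.61 ± 0.19 was called with the deposited values (limma, adjusted p = 0.0471) but not after median centring (adjusted p = 0.723). RPS12 had 673.1, 836.3 and 592.7 FPKM in NC and 1193.0, 1048.0 and 1250.2 FPKM in HFCF. It rose by 0.74 ± 0.20 (limma, adjusted p = 0.0300), and this call too was lost after median centring (adjusted p = 0.428).

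The changes of the small subunit proteins along the path of the mRNA ran from −0.01 to 1.81. RPS15, near the decoding site, had 91.9, 115.8 and 72.9 FPKM in NC and 275.7, 343.1 and 357.5 FPKM in HFCF, a change of 1.81 ± 0.21 (limma, adjusted p = 0.00205). RPS23, which reaches into the decoding site, rose by 1.69 ± 0.16 (limma, adjusted p = 0.00120), and RPS28, near the mRNA exit, by 1.40 ± 0.15 (limma, adjusted p = 0.00182). RPS3, at the mRNA entry, rose by 0.62 ± 0.18 (limma, adjusted p = 0.0417), a call lost after median centring (adjusted p = 0.689). RPSA, which sits at the back of the subunit and is also known as a precursor of the laminin receptor, had 191.1, 242.0 and 180.1 FPKM in NC and 201.2, 189.0 and 216.1 FPKM in HFCF. Its groups overlapped and its change was −0.01 ± 0.16 (limma, adjusted p = 0.979).

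Among the large subunit genes, 22 of 33 tested were called higher, beside 22.8% of all genes, with a median change of 0.86. After median centring 14 were called higher and 0 lower, beside 10.0% and 17.0% of all genes. RPL37 (ENSSSCG00000033326), a zinc-binding protein of the subunit, had 26.5, 36.0 and 24.2 FPKM in NC and 196.7, 185.2 and 201.6 FPKM in HFCF. It was the ribosomal protein gene with the largest change, 2.77 ± 0.18 (limma, adjusted p = 0.000403), a ratio of group means of 6.73. RPL38 (ENSSSCG00000017239), a small protein known for its part in the translation of Hox mRNAs in mouse embryos, had 58.3, 66.4 and 46.5 FPKM in NC and 278.6, 282.0 and 315.4 FPKM in HFCF. Its change was 2.37 ± 0.17 (limma, adjusted p = 0.000572). RPL35A (ENSSSCG00000040273), which is mutated in some patients with Diamond-Blackfan anaemia, had 24.7, 28.8 and 22.2 FPKM in NC and 117.3, 120.1 and 124.9 FPKM in HFCF. Its groups were separate, with a change of 2.26 ± 0.14 (limma, adjusted p = 0.000385). A further row described as the same protein was not called, with a change of 0.57 ± 0.18 (adjusted p = 0.0564). How reads were shared between these rows is uncertain.

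The proteins around the exit tunnel included some of the larger rises. RPL31 (ENSSSCG00000008170) had 128.8, 147.7 and 119.1 FPKM in NC and 459.3, 539.7 and 567.7 FPKM in HFCF, a change of 1.98 ± 0.16 (limma, adjusted p = 0.000785). RPL26 (ENSSSCG00000028850) had 152.8, 172.2 and 144.5 FPKM in NC and 570.3, 588.2 and 639.9 FPKM in HFCF, a change of 1.94 ± 0.15 (limma, adjusted p = 0.000645). Both sit at the rim of the tunnel, and in both the HFCF pigs were far above the NC pigs. RPL35, also at the rim, rose by 1.28 ± 0.16 (limma, adjusted p = 0.00257). RPL4, whose long loop forms part of the tunnel wall, had 137.0, 187.6 and 126.0 FPKM in NC and 178.5, 168.4 and 183.9 FPKM in HFCF. Its groups overlapped through NC pig 2, and the change was 0.26 ± 0.18 (limma, adjusted p = 0.320).

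The proteins nearest the catalytic centre were not called. RPL3, which reaches towards the peptidyl transferase centre, had 725.1, 844.7 and 702.3 FPKM in NC and 796.2, 790.6 and 812.7 FPKM in HFCF, with a change of 0.08 ± 0.16 (limma, adjusted p = 0.727). RPL10, which is added late and closes the tRNA sites, had 873.3, 936.4 and 870.0 FPKM in NC and 1213.7, 1168.0 and 1334.0 FPKM in HFCF. Its groups were separate, and its change of 0.47 ± 0.16 missed the threshold (limma, adjusted p = 0.0706).

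RPL5 and RPL11 carry the 5S rRNA into the ribosome together and, outside it, bind the p53 regulator MDM2. RPL5 had 371.2, 516.0 and 441.8 FPKM in NC and 477.5, 470.1 and 510.7 FPKM in HFCF, and its change was 0.15 ± 0.17 (limma, adjusted p = 0.560). RPL11 had 77.1, 122.3 and 95.1 FPKM in NC and 138.3, 190.4 and 169.8 FPKM in HFCF, and rose by 0.77 ± 0.21 (limma, adjusted p = 0.0342). The RPL5 groups overlapped and the RPL11 groups did not, but the RPL11 call was lost after median centring (adjusted p = 0.390).

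The P stalk recruits the translation factors to the large subunit, with RPLP0 as its base and RPLP1 and RPLP2 as the arms that pair on it. Their changes ran from 0.11 to 2.05. RPLP0 had 1040.5, 1310.3 and 913.2 FPKM in NC and 1104.0, 1023.4 and 1385.4 FPKM in HFCF, with overlapping groups and a change of 0.11 ± 0.22 (limma, adjusted p = 0.735). RPLP1, the ribosomal protein gene with the highest mean level, had 2016.1, 2426.8 and 1985.1 FPKM in NC and 3384.2, 3944.8 and 4332.9 FPKM in HFCF. It rose by 0.86 ± 0.22 (limma, adjusted p = 0.0262), a call lost after median centring (adjusted p = 0.324). RPLP2 (ENSSSCG00000012842) had 291.2, 334.8 and 232.9 FPKM in NC and 1135.7, 1135.3 and 1264.7 FPKM in HFCF, a change of 2.05 ± 0.19 (limma, adjusted p = 0.00109). In NC the RPLP2 level was well below that of RPLP0 in every pig, and in HFCF the RPLP2 values lay within the range of the RPLP0 values.

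Of the 17 tested genes that were not called, RPL10A had the lowest change. It had 53.4, 65.2 and 49.9 FPKM in NC and 44.9, 46.0 and 69.0 FPKM in HFCF, a change of −0.10 ± 0.21 (limma, adjusted p = 0.760), with HFCF pig 3 above the other HFCF pigs. RPL6 and RPS4X, named here after their values were seen, had changes of 0.10 ± 0.18 and 0.19 ± 0.19. A p that misses the threshold does not show that such genes were equal in the groups. The row called RPL22 had 33.7, 38.0 and 35.9 FPKM in NC and 41.8, 43.0 and 45.6 FPKM in HFCF. The file describes that row as ICMT, a methyltransferase, so which gene its values measure is uncertain.

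The size of the change followed the number in the protein name, a pattern noticed after the values were seen. The numbers were historically given by position on gels, so that low numbers belong on the whole to larger proteins. Over the 26 numbered large subunit genes, Pearson's r between number and log2 fold change was 0.84 and Spearman's rho 0.87. Over the 21 small subunit genes they were 0.75 and 0.78. These are descriptions across genes that share the same 6 libraries, with no test. Large subunit genes numbered 10 or lower had a median change of 0.19 with 0 of 8 called, those from 11 to 23 had 0.71 with 4 of 6 called, and those of 24 and above had 1.84 with 12 of 12 called. Small subunit genes numbered 9 or lower had a median of 0.53 with 3 of 8 called, those from 10 to 18 had 1.15 with 6 of 6 called, and those of 19 and above had 1.68 with 7 of 7 called. The same correlation between pigs of a single group ran from −0.59 to 0.55, with both signs. Transcript lengths were not used here, and what the pattern reflects was not tested.

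**Figure D3:**
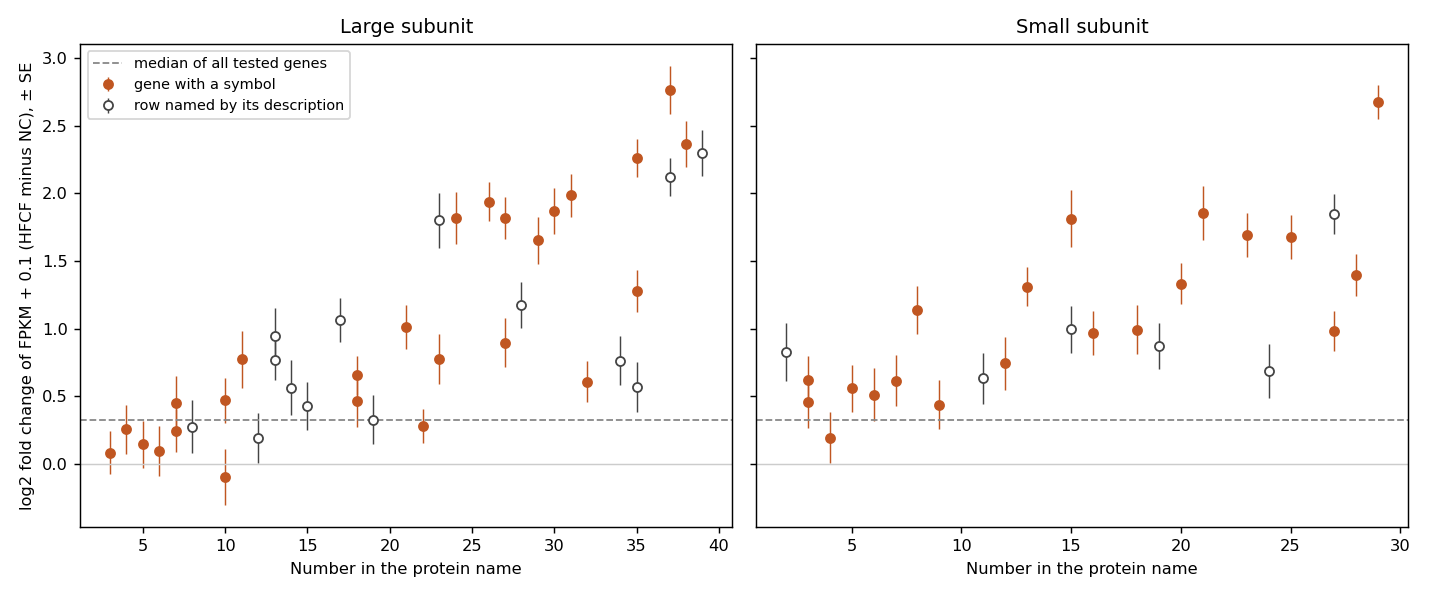
Log2 fold change of FPKM + 0.1 (HFCF minus NC, ± SE) against the number in the protein name, for the large subunit (left) and the small subunit (right). Filled points are genes with a symbol and open points are rows identified by their description; the dashed line is the median of all tested genes (0.32), and 1 small subunit gene not reported here is not drawn. The changes rise with the number, with r = 0.84 over 26 large subunit genes and r = 0.75 over 21 small subunit genes.

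A further 26 rows carry no symbol but are described as cytosolic ribosomal proteins, and were not part of the name rule. Of these, 23 passed the filter, 15 were called higher and 0 lower, beside 22.8% and 6.16% of all genes, and their median change was 0.77. After median centring 6 were called higher and 0 lower, beside 10.0% and 17.0% of all genes. RPL39, a very small protein of the tunnel wall, had 209.6, 156.8 and 162.1 FPKM in NC and 909.6, 821.7 and 855.6 FPKM in HFCF, a change of 2.30 ± 0.17 (limma, adjusted p = 0.000602). RPL23A, a docking site at the tunnel exit, rose by 1.80 ± 0.21 (limma, adjusted p = 0.00204). RPL8, near the catalytic centre, and RPL12, at the base of the P stalk, had changes of 0.28 ± 0.20 and 0.19 ± 0.18 and were not called. In these rows, too, the number in the name and the change went together, with r = 0.66 over 14 large subunit rows and 0.53 over 6 small subunit rows. RPL9, RPL36, RPL41, RPS10, RPS14 and RPS26 were not analysed here.

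Paralogs are second genes related to a ribosomal protein gene, some of them with tissue-restricted use. RPL3L, the striated muscle form of RPL3, stayed at or below 0.155 FPKM in every pig, and RPL10L, a testis form of RPL10, was listed at 0 in every pig, so neither was tested. RPL26L1 had 17.6, 17.5 and 20.2 FPKM in NC and 44.5, 40.9 and 45.6 FPKM in HFCF, a change of 1.24 ± 0.13 (limma, adjusted p = 0.00173). RPS27L, a p53 target, rose by 1.09 ± 0.15 (limma, adjusted p = 0.00358) from 4.37 ± 0.24 to 9.44 ± 0.61 FPKM (SD, n = 3 each). RPL36AL rose by 1.62 ± 0.15 (limma, adjusted p = 0.00110), and RPL7L1 by 0.66 ± 0.19 (limma, adjusted p = 0.0393), the latter not after median centring (adjusted p = 0.590).

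The level of a paralog relative to its parent was compared within each pig for the 5 pairs that could be tested, which does not depend on how a library was scaled beyond the pseudocount. RPL26L1 relative to RPL26 had a mean log2 ratio of −3.08 ± 0.23 in NC and −3.78 ± 0.09 in HFCF (SD, n = 3 each). RPS27L relative to RPS27, which like RPL22L1 was identified by its description, went from −5.15 ± 0.20 to −5.90 ± 0.14. RPL22L1 relative to the row called RPL22 went the other way, from −2.82 ± 0.27 to −1.43 ± 0.26, with the doubt about that row given above. RPL36AL relative to the RPL36A readthrough row went from −2.27 ± 0.20 to −1.94 ± 0.11. In these 4 pairs the groups did not overlap, and each gave p = 0.1 in an exact two-sided permutation test, the smallest that 3 pigs against 3 allow, and 0.125 after adjustment over the 5 pairs. RPL7L1 relative to RPL7 overlapped between groups, with a difference of 0.21 (exact permutation p = 0.2, adjusted 0.2). None of the 5 differences could therefore pass 0.05.

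**Figure D4:**
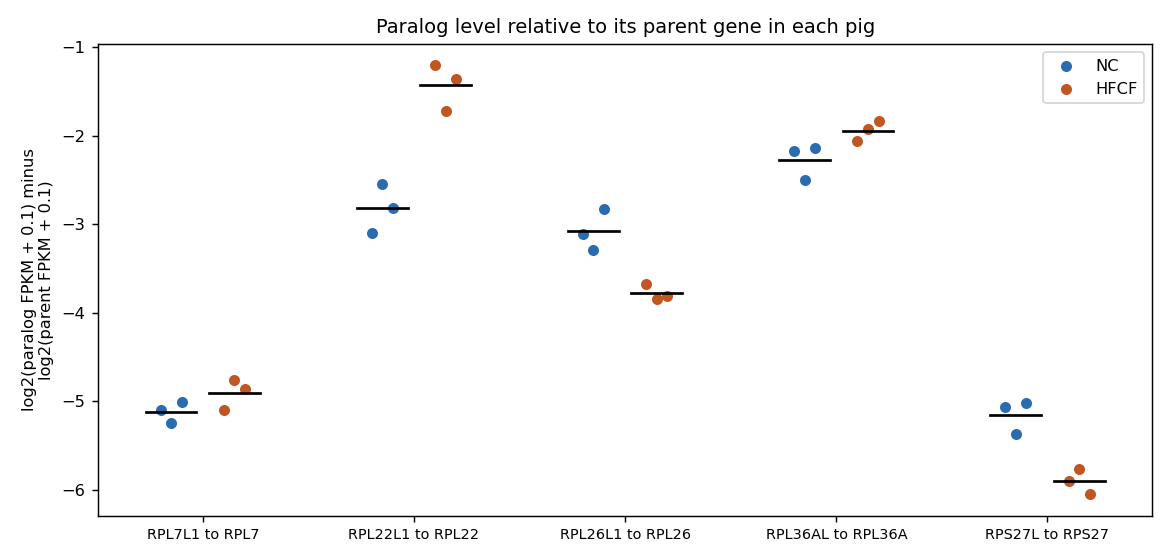
Log2 ratio of paralog to parent (FPKM + 0.1) in each pig for 5 pairs, with NC pigs in blue, HFCF pigs in orange and a black line at each group mean. The groups are separate in 4 pairs, lower in HFCF for RPL26L1 and RPS27L and higher in HFCF for RPL22L1 and RPL36AL.

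Other lists of the translation machinery had lower medians than the ribosomal proteins. Of 16 tested genes of elongation factors and other TOP mRNAs, 1 was called higher and 2 lower, beside 22.8% and 6.16% of all genes. Their median change was −0.14. EEF2, which moves the ribosome along the mRNA, had 1022.1, 1313.3 and 1211.4 FPKM in NC and 603.3, 744.0 and 862.3 FPKM in HFCF, and fell by 0.69 on the log2 scale (SE 0.21, limma adjusted p = 0.0440). EIF3L, a subunit of initiation factor eIF3, fell by 0.58 (SE 0.16, limma adjusted p = 0.0328). EEF1B2, an exchange factor for elongation factor eEF1A, rose by 0.61 ± 0.18 (limma, adjusted p = 0.0432), not after median centring (adjusted p = 0.670). After median centring 0 of the 16 genes were called higher and 8 lower, beside 10.0% and 17.0% of all genes. FAU, whose product is a ubiquitin-like protein fused to RPS30, had 92.5, 98.0 and 75.7 FPKM in NC and 115.6, 123.0 and 131.0 FPKM in HFCF, a change of 0.48 ± 0.15 that was not called (limma, adjusted p = 0.0509).

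Of 24 initiation factor genes tested, 6 were called higher and 0 lower, a share close to the 22.8% of all genes, with a median change of 0.34. After median centring 1 was called higher and 6 lower, beside 10.0% and 17.0% of all genes. EIF1AX, which helps the small subunit find the start codon, rose by 1.15 ± 0.19 (limma, adjusted p = 0.00606). EIF3A rose by 0.89 ± 0.17 (limma, adjusted p = 0.00955) and EIF4G2 by 0.66 ± 0.14 (limma, adjusted p = 0.0159), and both calls were lost after median centring (adjusted p = 0.0989 and 0.443). Of 53 ribosome biogenesis genes tested, 12 were called higher and 2 lower, beside 22.8% and 6.16% of all genes, with a median of 0.27, near that of all genes. After median centring 2 were called higher and 9 lower, again beside 10.0% and 17.0% of all genes. NOP10, a small protein of the complexes that modify rRNA, had 8.39, 9.28 and 8.04 FPKM in NC and 46.5, 44.8 and 49.2 FPKM in HFCF, a change of 2.44 ± 0.13 (limma, adjusted p = 0.000255). POLR1D, a subunit shared by RNA polymerases I and III, rose by 1.27 ± 0.15 (limma, adjusted p = 0.00233). NOP14, needed for small subunit assembly, fell by 1.59 on the log2 scale (SE 0.25, limma adjusted p = 0.00539).

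A list of mTORC1 genes and targets also held the kinases RPS6KA1, RPS6KA2 and RPS6KA3. Of its 18 tested genes, 5 were called higher and 1 lower, beside 22.8% and 6.16% of all genes, with a median of 0.12. After median centring 3 were called higher and 7 lower, beside 10.0% and 17.0% of all genes. RPS6KB1, the S6 kinase that acts on RPS6, had 2.24, 2.82 and 2.73 FPKM in NC and 5.77, 6.56 and 6.52 FPKM in HFCF, a change of 1.25 ± 0.18 (limma, adjusted p = 0.00427). PDCD4, an inhibitor of translation that S6 kinase marks for breakdown, rose by 1.23 ± 0.16 (limma, adjusted p = 0.00293). RPS6KA1, a kinase of the MAPK pathway that also phosphorylates RPS6, had 1.10, 1.07 and 1.53 FPKM in NC and 21.0, 8.59 and 8.96 FPKM in HFCF, a change of 3.17 ± 0.37 (limma, adjusted p = 0.00217). HFCF pig 1 was well above the other HFCF pigs. Of 74 mitochondrial ribosomal protein genes tested, 34 were called higher and 0 lower, beside 22.8% and 6.16% of all genes, with a median of 0.63. After median centring 10 were called higher and 5 lower, beside 10.0% and 17.0% of all genes. The differences between these lists and the ribosomal proteins are given as values, with no test.

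**Figure D5:**
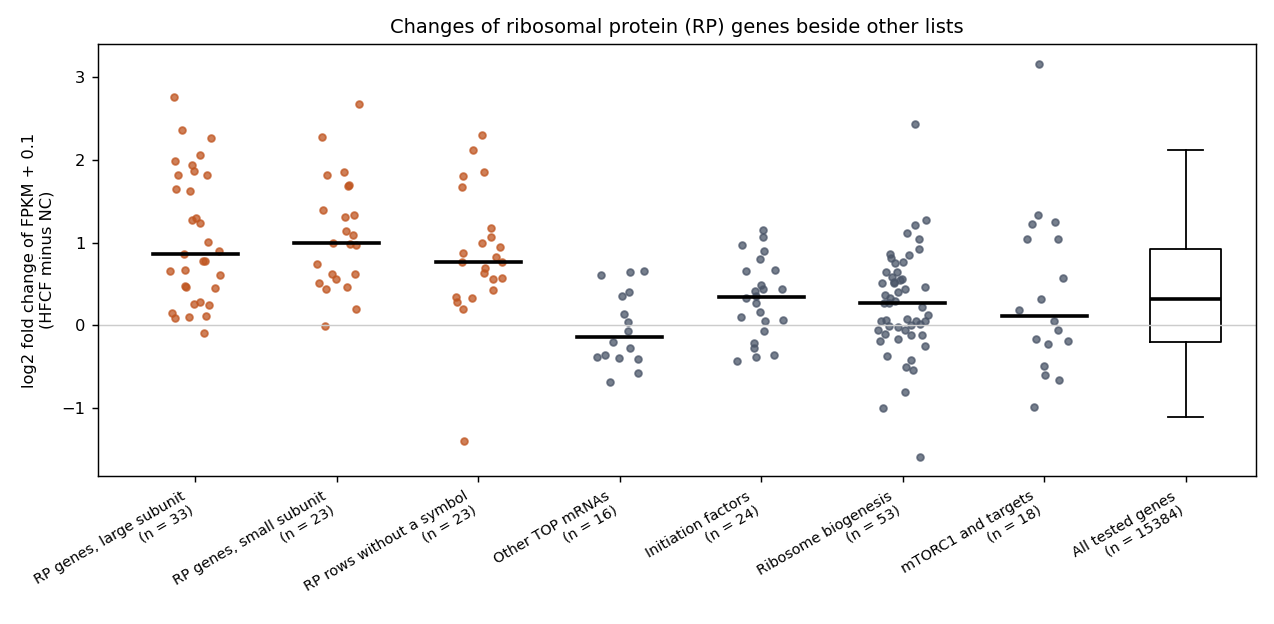
Log2 fold change of FPKM + 0.1 (HFCF minus NC) of each gene in the ribosomal protein groups (orange) and in other lists of the translation machinery (grey), with a black line at each median and a box plot of all tested genes (box from the lower to the upper quartile, whiskers from the 5th to the 95th percentile). The medians are 0.86 for the large and 0.99 for the small subunit, 0.77 for the rows without a symbol, −0.14 for other TOP mRNAs and 0.32 for all genes.

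Some cell type markers moved with the groups beside these results. Of all tested genes 22.8% were called higher and 6.16% lower, which the marker counts are to be read beside. Macrophage markers summed to 65.6 to 84.8 FPKM in NC and 785.9 to 2058.2 FPKM in HFCF, with 11 of 12 called higher. Of 8 contractile smooth muscle markers, 6 were called lower and 0 higher. T cell markers summed to 1.04 to 1.37 FPKM in NC and 3.40 to 16.8 FPKM in HFCF, with 2 of 7 called higher, and proliferation markers to 5.44 to 5.92 and 10.1 to 22.7 FPKM, with 3 of 5 called higher. B and plasma cell markers summed to 8.57 to 14.1 FPKM in NC and 36.5 to 57.5 FPKM in HFCF, with 1 of 7 called higher, and neutrophil markers to 0.474 to 2.21 and 5.40 to 94.3 FPKM, with 1 of 3 called higher. The called B and plasma cell gene, CD79A, made up most of the HFCF sum, with 34.1 to 38.0 FPKM there and 5.64 to 9.87 FPKM in NC. In that list only TNFRSF17 had a negative change (−0.47), which was not called. HFCF pig 1 had the highest HFCF sum of macrophage, T cell, B and plasma cell, neutrophil and proliferation markers. It also stood apart in red cell markers, which summed to 2897.2 FPKM there, to 86.5 and 95.5 FPKM in the other HFCF pigs and to 22.0 to 178.8 FPKM in NC, with 0 of 3 called. Without that pig fewer ribosomal protein genes were called, and fewer genes were called in all. The ranges over the libraries left out in turn are given in the closing section. Adipocyte markers summed to 191.6, 299.9 and 38.1 FPKM in NC pigs 1 to 3 and to 73.3 to 100.9 FPKM in HFCF, with 0 of 6 called. Fibroblast markers summed to 1941.0 to 4229.7 and 2383.1 to 4404.4 FPKM, with 1 of 7 called higher. Endothelial markers, with 0 of 7 called, summed to 136.2 to 245.0 FPKM in NC and 110.5 to 274.3 FPKM in HFCF. None of these sums was at 0 in a pig, and their part in the ribosomal protein result was not tested.

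Among the genes whose levels most resembled the mean of the ribosomal protein genes over the 6 libraries were CFAP126, POLR1D, MEIOB and NDUFA13. Their Pearson correlations with the mean centred log2 value of the ribosomal protein genes ran from 0.9962 to 0.9996, among 9526 genes compared. NDUFA13, a subunit of respiratory complex I, had 6.60, 7.74 and 5.83 FPKM in NC and 21.9, 23.8 and 26.8 FPKM in HFCF. All 6 libraries are shared by the genes compared, and their separation into the diet groups enters every such correlation.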

How the data were processed

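Total RNA from the abdominal aorta of 3 NC and 3 HFCF pigs was sequenced from mRNA libraries. According to the methods and the submitters' processing notes, the authors trimmed reads with cutadapt 1.9, checked them with FastQC, mapped the pairs with HISAT2 and used StringTie for assembly. The authors deposited FPKM values, and a deposited FPKM of 0.0001 was read as 0. Because the build named in the methods is older than the gene table used here, positions are left out. Read counts were not used here, the depth behind each FPKM is not known, and precision was taken from the spread between pigs.

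The model was fitted to log2(FPKM + 0.1) of 15384 genes whose mean FPKM reached 0.1. It used limma 3.58.1 under R 4.3.3, with a diet term alone and a variance trend in eBayes, and Benjamini-Hochberg adjustment over all of them. Log2 fold changes understate the change of genes with low FPKM. Paralog ratios were compared with an exact permutation test. On simulated data of 15384 genes with 200 genes changed by a log2 change of 2, 179 were recovered with 11 false calls, and 0 genes were called with no effect simulated. The simulation used independent noise, rises and falls in equal number and no shift between libraries. It therefore does not measure false calls or recovery under the library shifts seen in these data. Replicate numbers were not treated as pairs in the main fit. Deviations of same-numbered pigs from their group means correlated at 0.02, −0.08 and −0.07, which cannot exclude a small shared effect.

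The members and lists were chosen with earlier results of these data known. The text names the 8 largest rises, the 5 highest mean levels, paralogs with their parents, members of the role lists, RPS6, members below the filter, FAU, the 3 smallest p among called genes in each translation list, and the 5 genes most like the module, except that some of these genes are not reported here and enter only the counts, medians and correlations. The 26 rows without a symbol were identified by their deposited description. Alternatives were 2 further pseudocounts, 2 further filters, 4 scalings, eBayes without a trend, a replicate block, each library left out in turn and, chosen after seeing the data, scaling to nuclear protein-coding genes.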

Additional observations from a re-analysis of the deposited data

How the results depend on the processing

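Under the 17 alternatives between 24 and 41 ribosomal protein genes were called, against 39 with the deposited values. The lowest number, 24, came with median centring, where 4163 of 15384 genes were called in all. The highest, 41, came with a filter at a mean FPKM of 1, where 3890 of 11121 genes were. 24 of the 39 called genes were called under every alternative, 15 lost the call under at least 1, and 4 uncalled genes gained it under at least 1. Relative to the median of all genes, some genes called in no fit changed sign, among them RPL22, RPL4, RPL5 and RPS4X. Not every ribosomal protein gene was followed in this way. RPL22 went from −0.0431 to 0.140 without a filter, 0.0783 with a pseudocount of 1, 0.246 with quantile normalization and −0.0946 to 0.0107 with libraries left out. RPL4 went from −0.0641 to 0.118, 0.0619 and 0.174 with those settings and −0.199 to 0.0771 with libraries left out. Without a filter RPL5 went from −0.175 to 0.00749 and RPS4X from −0.129 to 0.0535. The plain log2 fold changes of RPL22, RPL4, RPL5 and RPS4X were the same without a filter. The median of all genes was 0.14 there, against 0.32 with the filter. The plain log2 fold change was below 0 in 2 of the 56 genes with the deposited values, in 15 after median centring, 10 with median-ratio scaling, 8 with quantile normalization, 9 after rescaling to TPM and 6 after scaling to nuclear protein-coding genes, and none of these was called. After median centring the median change of all genes was itself −0.18. The median change relative to all genes was 0.55 to 0.70 when libraries were left out in turn, and the number of called ribosomal protein genes was then 29 to 40. Without NC replicate 1, 2421 genes were called in all, and without NC replicate 2, 2883, against 4453, with a range of 2421 to 3596 over the 6 libraries. Of all tested genes 3505 were called higher and 948 lower with the deposited values, 1546 and 2617 after median centring, 2035 and 1969 with median-ratio scaling, 1748 and 1782 with quantile normalization, and 2229 and 1527 after rescaling to TPM. The replicate block left 31 ribosomal protein genes and 2772 genes in all. The HFCF minus NC difference in the summed share was 3.22 percentage points, 2.83 without RPLP1 and 4.18 with nuclear protein-coding genes as the denominator. The cause of these shifts was not tested. With 3 pigs a group and no known depth, small changes could not be resolved, and reads shared with near-identical copies could not be separated.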
